A study of Homo sapiens with 6 samples.

Results

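The genes described here are those of the Wnt pathway whose products act as secreted ligands, receptors, secreted antagonists, cytoplasmic signal carriers or nuclear cofactors, BCL9L among the last. They were chosen by symbol: a locus of the deposited table was taken if it carried an annotated transcript and a protein-coding type and if one of its names was a WNT, FZD, DKK, SFRP, RSPO, DVL, AXIN, TCF7 or BCL9 family symbol or one of 14 further symbols (LEF1, CTNNB1, APC, LRP5, LRP6, PYGO2, PORCN, ROR1, ROR2, RNF43, ZNRF3, LGR4, NKD1 and NKD2). This gave 66 of 60835 loci, with 65 distinct symbols, since PORCN names 2 loci. The rule itself uses names alone. The cells were ARPE-19, a human retinal pigment epithelium line with the genotype given as WT, and each group stands for this single line. RNA was sequenced from 3 libraries of cells kept 72 h in normal glucose medium and from 3 libraries of cells kept 72 h in high glucose medium, and the comparison asks which transcripts differ between the media. Neither glucose concentration is stated, and nothing says that replicate libraries came from separate cultures, so each p-value reflects library-to-library spread that may be technical.

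Wnt proteins are lipid-modified in the secreting cell by PORCN and bind frizzled receptors together with LRP5 or LRP6 on the receiving cell. Dishevelled proteins then hold back the destruction complex of AXIN1, APC and kinases, beta-catenin (CTNNB1) accumulates, and in the nucleus it works with TCF and LEF factors through the adaptors BCL9, BCL9L and PYGO2. DKK and SFRP proteins interfere outside the cell, and R-spondins protect frizzleds from the ubiquitin ligases RNF43 and ZNRF3. In the eye, FZD4 and LRP5 are known for retinal vessel growth, and beta-catenin signalling takes part in setting the fate of the pigment epithelium.

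The libraries held 81616741 to 87748820 counts. Normal glucose 3 stood apart on the second principal component (-107.1 against 6.61 to 44.0 for the others, 18% of the variance). For some members that rest on it, the change is also given without it. Among 16 markers of pigment epithelium, RGR was at 0, and RPE65 and TYR were below 0.14 CPM in every library. The summed level of the list was 660, 625 and 1174 CPM in normal glucose 1, 2 and 3, and 2248 to 2372 CPM in high glucose. It was carried mostly by KRT8 and KRT18, which were called higher. In the same list BEST1, a chloride channel of the pigment epithelium, was called lower (9.30 ± 3.56 and 2.02 ± 0.763 CPM; log2 change -2.20; edgeR adjusted p = 0.0113), and MITF, its lineage factor, was at 83.1 ± 3.21 and 49.8 ± 18.5 CPM and not called (SD, n = 3). OTX2 was at 38.6 ± 12.5 and 43.0 ± 2.72 CPM and LRAT at 4.77 ± 1.01 and 5.48 ± 0.979 CPM, neither called. MITF, OTX2 and LRAT were chosen after their values were seen. The median log2 change of the 11 tested markers of the list was -0.05. The 13 fibroblast markers summed to 238 to 357 CPM in normal and 284 to 292 CPM in high glucose, with PDGFRB called higher and COL1A1 and TWIST1 lower. The 6 endothelial markers summed to 10.6 to 17.2 CPM in normal and 3.48 to 4.73 CPM in high glucose, with KDR called lower. The 6 white blood cell markers summed to 343 to 474 CPM in normal and 427 to 544 CPM in high glucose. Only 2 of these 6 had enough counts to be tested, so the sum rests on few genes. In that list PTPRC was at most 0.0932 CPM, and CD3E of T cells was at 0. The 8 neural retina markers summed to 54.7 to 64.2 CPM in normal and 49.5 to 54.7 CPM in high glucose, with CRX at 0. Of these 8, 3 had enough counts to be tested and 3 had no count. No marker of either list was called. The part of these lists in the results was not tested. In bulk RNA, fewer cells that express a gene and less RNA per cell cannot be told apart.

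Of the 66 loci, 57 had at least 1 count, 46 had enough counts to be tested, and 20 were left untested. At a Benjamini-Hochberg adjusted p under 0.05 in edgeR's quasi-likelihood test, which is what "called" means below, 9 rose and 6 fell in high glucose. That is 32.6% of the tested members, beside 19.6% of all 25025 tested loci and 25.5% of the 13786 tested loci with a protein-coding transcript. By direction, 9.75% of all tested loci rose and 9.86% fell (13.1% and 12.4% of those with a protein-coding transcript). The median log2 change of the tested members was -0.14, and it was 0.01 over the protein-coding loci. The size of the change without its sign had a median of 0.43 in the members and 0.41 over the protein-coding loci. The libraries of the groups did not overlap at 26 of 46 members, beside 42.3% of all tested loci and 49.5% of the protein-coding ones. High glucose lay above normal at 11 of the 46 (21.8% of all tested loci and 25.9% of the protein-coding ones). It lay below at 15 of the 46 (20.5% and 23.6%). The number of called members depended on the libraries: omitting normal glucose 1, 2 or 3 left 9, 10 or 17, and omitting high glucose 1, 2 or 3 left 6, 6 or 5.

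**Figure D1:**
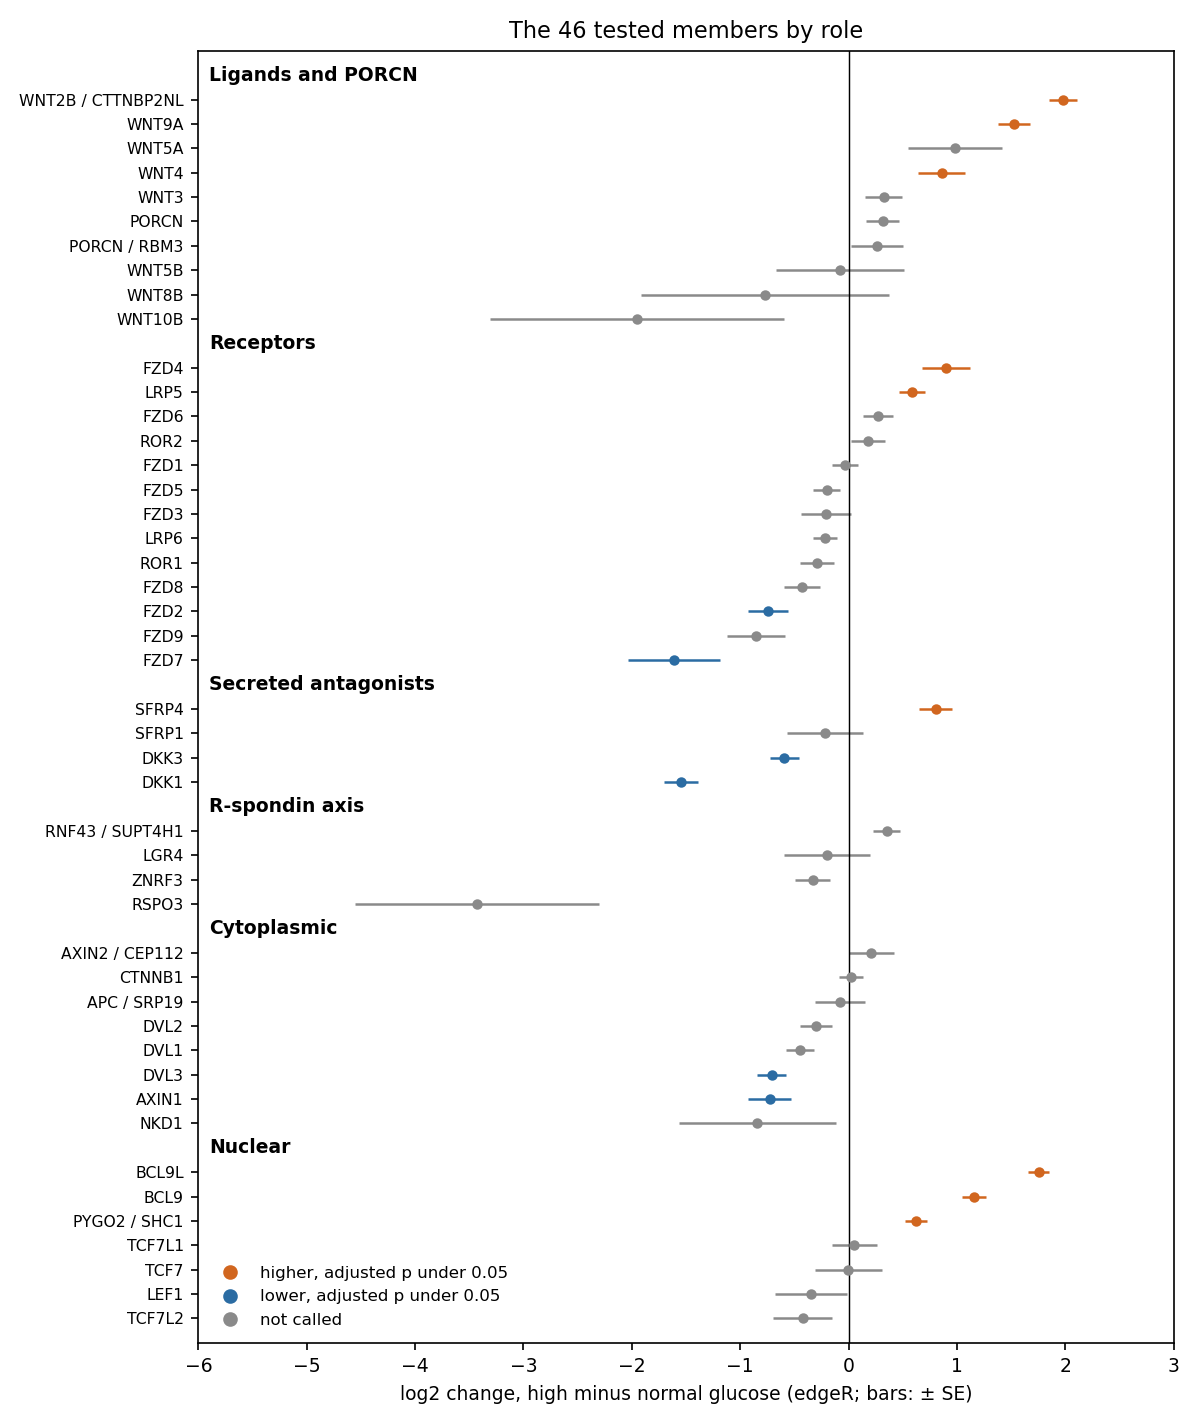
The log2 change (high minus normal glucose, horizontal axis) of each of the 46 tested loci, sorted by size within its role, with bars for ± SE; orange marks loci called higher, blue lower and grey not called. Nuclear cofactors and ligands hold the largest positive changes, from BCL9L (1.76) and the WNT2B locus (1.98), and FZD7 (-1.61) and DKK1 (-1.55) the largest called negative ones.

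Few Wnt genes were transcribed at a measurable level, and 3 of their loci rose. Of 19 WNT loci, 8 were tested and 6 had no count in any library (WNT1, WNT3A, WNT6, WNT7A, WNT8A and WNT9B); the limit set by 3 fragments, or 12 counts, is 0.137 to 0.147 CPM per library and covers counting error only. WNT2, WNT7B, WNT10A, WNT11 and WNT16 had counts in 1 to 3 libraries and too few to test. WNT9A, a ligand known from joint development, was at 5.0, 5.0 and 5.63 CPM in the normal and at 13.8, 15.1 and 16 CPM in the high glucose libraries. All 3 high glucose values lay above 2 times the highest normal value, and the log2 change was 1.52 (SE 0.149; edgeR adjusted p = 0.00272). WNT4, a ligand of kidney and gonad development, was at 1.71, 1.46 and 1.40 CPM in normal and at 3.09, 2.59 and 2.59 CPM in high glucose. The groups did not overlap, and WNT4 rose by 0.86 (SE 0.215; edgeR adjusted p = 0.0335), from a level near 0.260 FPKM. Omission of normal glucose 1 or 2 gave an adjusted p of 0.0583 or 0.0874, and omission of high glucose 1, 2 or 3 gave 0.123, 0.0986 or 0.0934.

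The promoter of WNT9A is shown because it is the called ligand with its own locus that changed most. The sequence is the RefSeq window of 250 bases before and 50 after the transcription start (GRCh38.p14, minus strand, chr1:227947883-227948182), and capitals mark the GC box GGGCGG, or its complement CCGCCC, found at -104, -67 and -23 from the start.
WNT9A: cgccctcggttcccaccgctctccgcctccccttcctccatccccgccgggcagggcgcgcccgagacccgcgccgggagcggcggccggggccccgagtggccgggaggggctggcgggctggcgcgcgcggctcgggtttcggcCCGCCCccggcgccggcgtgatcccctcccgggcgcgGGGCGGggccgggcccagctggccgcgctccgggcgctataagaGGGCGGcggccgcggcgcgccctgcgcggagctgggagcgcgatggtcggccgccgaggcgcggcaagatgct
It held neither a TCF or LEF core (CTTTGAT or CTTTGAA) nor the E-box CACGTG, and its G and C content was 83.0%.

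The largest change of a locus with a WNT name belonged to WNT2B, but that locus also holds CTTNBP2NL, the gene of a cortactin-binding protein homologue, and the deposited counts do not separate them. The joint locus was at 125, 113 and 149 CPM in normal and at 495, 502 and 531 CPM in high glucose. It rose by 1.98 (SE 0.130; edgeR adjusted p = 0.00119), and no library of one group came near the other. A value for WNT2B itself cannot be given.

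WNT5A, a ligand of beta-catenin-independent signalling, had the highest mean FPKM among ligands with their own locus. It was at 27.1, 18 and 10.5 CPM in normal and at 45.8, 18.8 and 45.2 CPM in high glucose. High glucose 2 lay at the level of normal glucose 2, so the groups overlapped and the change of 0.98 was not called (95% interval -0.04 to 2.0; edgeR adjusted p = 0.158). WNT3, a ligand of embryonic axis formation, was at 7.21, 9.18 and 6.94 CPM against 10.3, 9.85 and 9.08 CPM, which overlapped (0.32; 95% interval -0.08 to 0.72). On the FPKM scale, the 18 WNT genes with a locus of their own summed to 5.19 ± 1.07 in normal and 10.0 ± 2.0 in high glucose (SD, n = 3). WNT9A made up 20.8% ± 5.86 of that sum in normal and 31.7% ± 7.53 in high glucose, and WNT5A 40.0% ± 10.5 and 42.0% ± 11.4. These shares overlap between groups and are given without a test.

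PORCN, the acyltransferase that lipid-modifies Wnt proteins, was at 18.1, 15.3 and 20.5 CPM in normal and at 23.5, 23.4 and 20.0 CPM in high glucose in its own locus, with overlapping groups (0.31; 95% interval -0.05 to 0.68; edgeR adjusted p = 0.2). A second locus holds PORCN with RBM3, a cold-inducible RNA-binding protein, and had a change of 0.26 (edgeR adjusted p = 0.495). WNT5B, WNT8B and WNT10B were below 1.2 CPM in every library and not called.

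**Figure D2:**
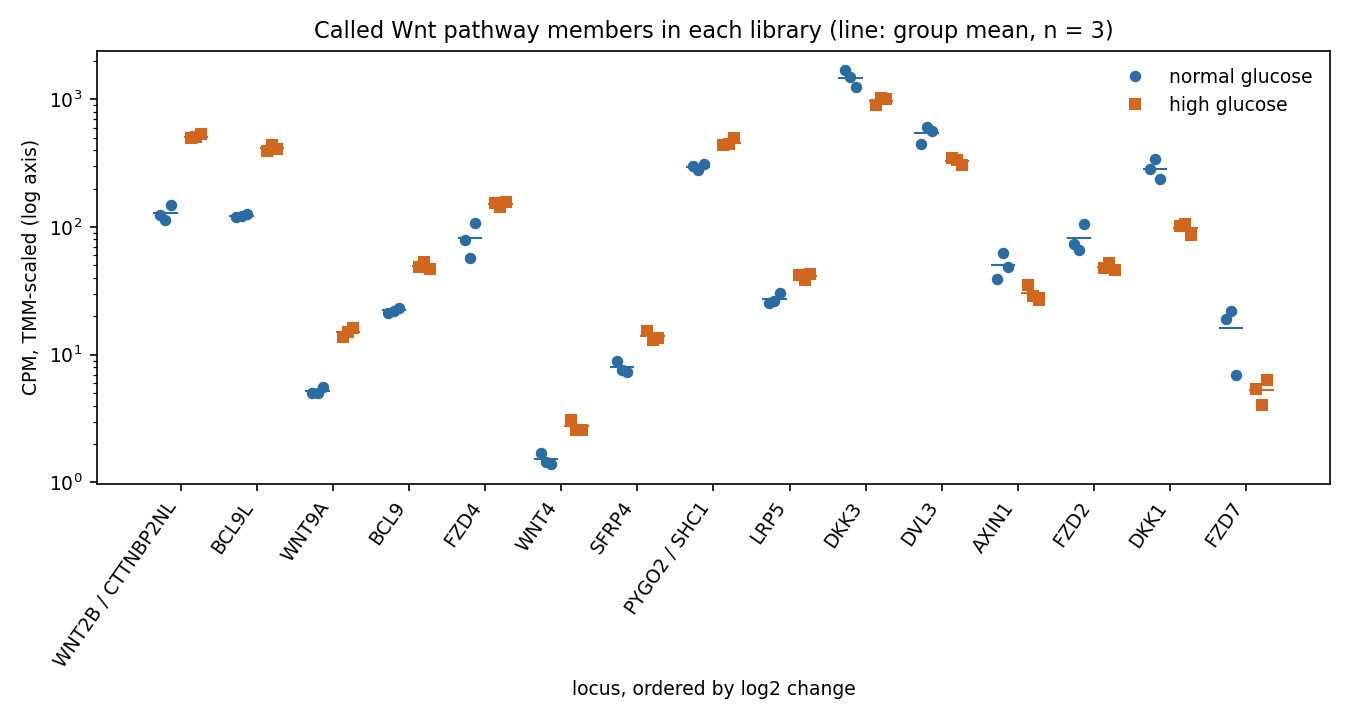
TMM-scaled CPM (vertical log axis) of the 15 called loci in each library, with circles for normal glucose, squares for high glucose and a line at each group mean (n = 3), ordered by log2 change; a second name after a slash shares the locus. No called locus has overlapping groups, and FZD7 in normal glucose 3 (6.93 CPM) lies beside its high glucose values.

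Among receptors, the makeup of the frizzled family differed between media while its summed level did not stand apart. The 10 frizzled genes summed to 48.9 ± 3.44 FPKM in normal and 48.4 ± 0.552 FPKM in high glucose (SD, n = 3). Of 9 tested frizzleds, FZD4 rose and FZD2 and FZD7 fell. The locus of FZD4, a receptor for Norrin and Wnt proteins, also carries the name AP001528, an unnamed transcript whose part in the counts, and in every FZD4 value here, is not known. It was at 79.2, 57.1 and 108 CPM in normal and at 154, 145 and 157 CPM in high glucose. The normal libraries were spread widely, all below the high ones, and the change was 0.90 (SE 0.218; edgeR adjusted p = 0.0302). With normal glucose 3 omitted the change was 1.16. FZD4 was not called when normal glucose 1 (0.0895) or high glucose 1, 2 or 3 (0.0931, 0.0879 and 0.0971) was omitted.

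FZD2, a frizzled of mesenchymal and palate development, was at 73.2, 66.5 and 105 CPM in normal and at 47.6, 52.7 and 46.2 CPM in high glucose. Every high glucose value lay below every normal one (-0.74, SE 0.184; edgeR adjusted p = 0.0323). The call was lost on omitting normal glucose 1 (0.0594) or high glucose 1, 2 or 3 (0.111, 0.0905 and 0.117). Normal glucose 3 held the highest value, and with it omitted the change shrank to -0.52 and was still called. FZD7, a frizzled of stem and epithelial cells, was at 19.2, 22.2 and 6.93 CPM in normal and at 5.43, 4.05 and 6.30 CPM in high glucose. Normal glucose 3 was near the high glucose libraries and far from the other normal ones. FZD7 fell by 1.61 (SE 0.423; edgeR adjusted p = 0.0384), or by 1.97 once normal glucose 3 was omitted. Omitting normal glucose 1 or 2 (0.108 and 0.111) or high glucose 1, 2 or 3 (0.114, 0.133 and 0.0954) ended the call.

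Per length, FZD2 was the most abundant frizzled in normal glucose (35.1% ± 6.15 of the family's FPKM), followed by FZD6 (22.4% ± 5.10) and FZD4 (15.3% ± 3.69). In high glucose FZD4 had 30.1% ± 1.03, FZD6 27.8% ± 0.236 and FZD2 22.0% ± 1.77. FZD7 went from 7.02% ± 3.83 to 2.32% ± 0.476. On this per-length scale the order of FZD2 and FZD4 was thus exchanged between the groups. The shares of these genes did not overlap, while those of FZD7 did (2.71% in normal glucose 3 and 2.74% in high glucose 3). In normal glucose 1 and 2 alone, FZD2 held 32.5% and 30.7% and FZD4 15.4% and 11.6%, so FZD2 had the larger share in these libraries too. In CPM, which does not divide by length, FZD2 was at 81.7 ± 20.8 and FZD4 at 81.4 ± 25.4 in normal glucose. By CPM, FZD4 was above FZD2 in normal glucose 1 and 3. In normal glucose, FZD6 and FZD4 did not differ beyond their spread in every library, since FZD4 had a larger share than FZD6 in normal glucose 3 (18.9% against 16.7%).

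**Figure D3:**
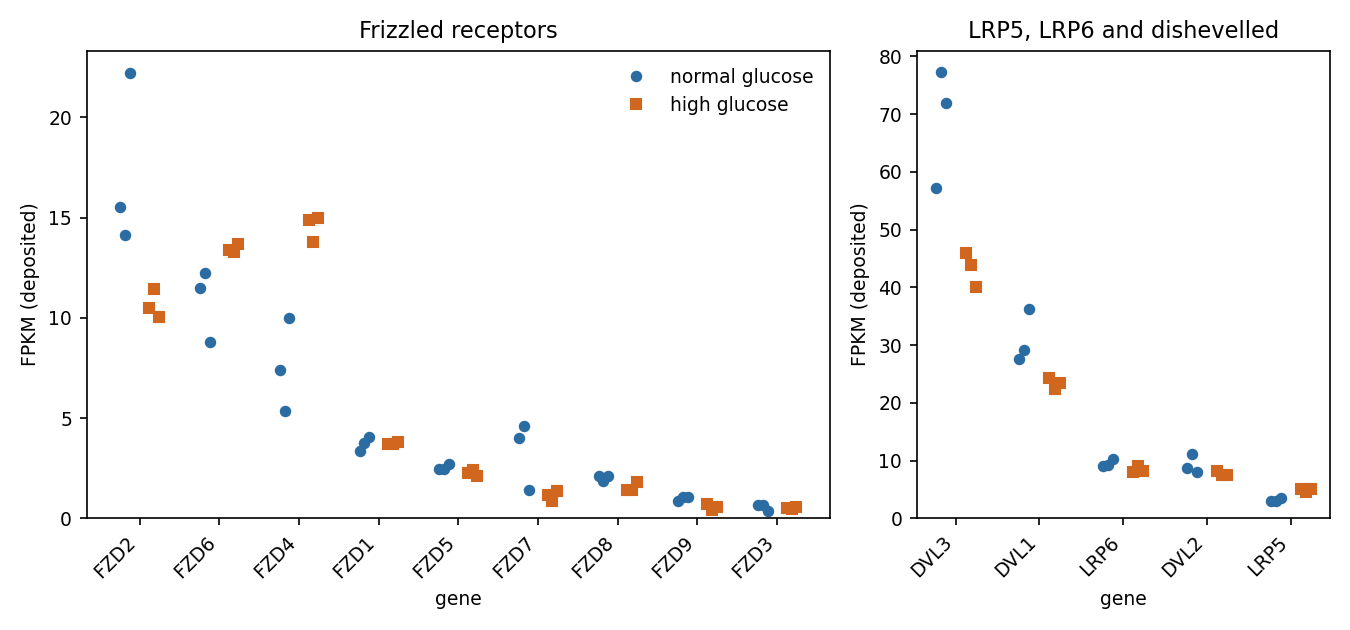
Deposited FPKM (vertical axes, linear from 0) of frizzled receptors (left) and of LRP5, LRP6 and the dishevelled genes (right) in each library, with circles for normal and squares for high glucose, sorted by mean. FZD4 moves from 7.57 to 14.6 FPKM while FZD2 moves from 17.3 to 10.7 FPKM, and DVL3 is the most abundant dishevelled gene in all 6 libraries.

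The other frizzleds were not called. FZD6, a planar polarity receptor, was at 76.4, 81.3 and 59.1 CPM against 86.1, 86.4 and 89.2 CPM, without overlap (0.27; 95% interval -0.05 to 0.59). FZD1 was at 28.7, 32.3 and 35.0 CPM against 30.8, 31.0 and 31.9 CPM, with an interval of -0.31 to 0.24 for the log2 change. FZD9, of low level, was at 2.53, 3.09 and 3.07 CPM against 2.05, 1.15 and 1.60 CPM (-0.85; edgeR adjusted p = 0.0677). FZD5 and FZD8 were also lower in each high glucose library than in any normal one, with changes of -0.20 and -0.43, and FZD3 overlapped. FZD10 had no count.

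Of the co-receptors, LRP5 rose and LRP6 was not called. LRP5, which binds Wnt proteins beside a frizzled and acts in bone mass and retinal vessels, was at 25.3, 26.4 and 30.5 CPM in normal and at 41.9, 38.3 and 43.2 CPM in high glucose. The groups were separate (0.59, SE 0.123; edgeR adjusted p = 0.0194), but 5 of the 6 omissions ended the call: normal glucose 1 or 2 (0.0595 and 0.0588) and high glucose 1, 2 or 3 (0.0816, 0.0637 and 0.0847). LRP6, its close relative, was at 117, 118 and 133 CPM against 99.1, 114 and 104 CPM (-0.22; 95% interval -0.47 to 0.04). LRP5 made up 25.0% ± 0.497 of the FPKM of the pair in normal and 36.8% ± 2.92 in high glucose (SD, n = 3). ROR2, a receptor for WNT5A, was at 14.1 ± 2.35 and 16 ± 0.852 CPM (0.18), and its relative ROR1 at 27.0 ± 4.51 and 22.1 ± 1.08 CPM (-0.29); neither was called, though ROR1 was without normal glucose 3 (-0.42; edgeR adjusted p = 0.0244).

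Of the secreted antagonists, DKK1 and DKK3 fell and SFRP4 rose. DKK1, which binds LRP5 and LRP6 and blocks canonical signalling, was at 284, 338 and 237 CPM in normal and at 101, 105 and 87.1 CPM in high glucose. The lowest normal library had more than 2 times the highest high glucose value. DKK1 fell by 1.55 on the log2 scale (SE 0.156; edgeR adjusted p = 0.00272), from 103 ± 18.6 to 36.3 ± 3.64 FPKM (SD, n = 3).

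DKK1 is itself known as a target of beta-catenin, and its promoter was the single one among the 47 member promoters found in the RefSeq table that held a TCF or LEF core. The window lies at chr10:52314031-52314330 of GRCh38.p14 on the plus strand. Capitals mark a GC box at -166, the core CTTTGAA at -95 and the TATA box TATAAA at -30.
DKK1: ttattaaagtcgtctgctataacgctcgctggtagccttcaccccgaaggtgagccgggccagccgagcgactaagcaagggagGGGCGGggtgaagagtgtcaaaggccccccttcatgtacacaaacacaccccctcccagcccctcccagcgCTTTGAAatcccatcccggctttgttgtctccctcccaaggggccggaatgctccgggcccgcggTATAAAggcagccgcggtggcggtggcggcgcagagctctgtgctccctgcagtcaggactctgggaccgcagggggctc
CTTTGAA or CTTTGAT occurred in 6.98% of all 27305 promoter windows on either strand. A match is a run of letters and was not tested for binding.

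DKK3, a divergent family member that does not bind LRP6 like DKK1, was the most abundant member by count, at 1682, 1497 and 1251 CPM in normal and at 901, 1017 and 1014 CPM in high glucose. Each high glucose value lay below each normal one (-0.60, SE 0.134; edgeR adjusted p = 0.0241). Omission of normal glucose 1 or 2 moved its adjusted p to 0.0615 or 0.0604, and that of high glucose 1, 2 or 3 to 0.0986, 0.0852 or 0.0833. The locus overlaps USP47 on the other strand, which was at 65.8 and 60.5 CPM and not called.

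SFRP4, a secreted frizzled-related protein, was at 9.0, 7.57 and 7.38 CPM in normal and at 15.3, 13.1 and 13.5 CPM in high glucose. The groups did not overlap (0.80, SE 0.155; edgeR adjusted p = 0.0151), though omitting high glucose 1, 2 or 3 ended the call (0.0719, 0.0595 and 0.0607). The SFRP4 locus overlaps one on the other strand that holds GPR141, EPDR1 and NME8 together. That joint locus rose too (0.52, edgeR adjusted p = 0.0456), and the counts do not separate its genes. SFRP1, the family member with the highest level here, was at 99.4, 78.1 and 215 CPM against 114, 108 and 116 CPM. Normal glucose 3 was above all other libraries, and the other normal libraries were below the high ones. Its change was -0.22 (95% interval -1.04 to 0.61; edgeR adjusted p = 0.707) and turned to 0.35 without normal glucose 3 (edgeR adjusted p = 0.079). DKK2, SFRP2 and SFRP5 had at most 30 counts in a library, and DKK4 had none. DKK and SFRP genes together summed to 226 ± 17.3 FPKM in normal and 127 ± 3.44 FPKM in high glucose, of which DKK1 made up 45.5% ± 5.30 and 28.7% ± 2.57 (SD, n = 3).

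No gene of the R-spondin axis was called. RSPO3, a secreted amplifier of Wnt signalling, was at 0.312, 0.816 and 1.73 CPM in normal and at 0.213, 0.0456 and 0 CPM in high glucose. These are 27, 70 and 144 counts against 19, 4 and 0, so few fragments lie behind the high glucose values. The fitted change was -3.43 (edgeR adjusted p = 0.075), and DESeq2 called it (adjusted p = 0.00704). LGR4, an R-spondin receptor, was at 41.0, 33.1 and 61.2 CPM against 27.6, 25.7 and 64.5 CPM, so that normal glucose 3 and high glucose 3 were both high and the groups overlapped (-0.20; 95% interval -1.13 to 0.73). ZNRF3, a ligase that removes frizzleds, was at 17.0, 13.1 and 15.2 CPM against 10.7, 12.4 and 12.9 CPM (-0.33; edgeR adjusted p = 0.187). The locus of its partner RNF43 also holds SUPT4H1, an elongation factor subunit, and had a change of 0.35 (edgeR adjusted p = 0.0854; 0.046 without normal glucose 3). RSPO1 and RSPO2 had counts in a single library each, and RSPO4 had none.

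Among cytoplasmic members, DVL3 and AXIN1 fell and the beta-catenin gene was not called. DVL3, a dishevelled adaptor that carries the signal from frizzleds, was at 449, 606 and 569 CPM in normal and at 348, 337 and 308 CPM in high glucose. The groups were apart (-0.71, SE 0.136; edgeR adjusted p = 0.015). The call did not hold on omitting high glucose 1, 2 or 3 (0.0582, 0.068 and 0.0755). DVL1 was at 133, 141 and 177 CPM against 114, 106 and 111 CPM, also apart, and just missed the threshold (-0.45, SE 0.130; edgeR adjusted p = 0.053). It was called without normal glucose 3 (-0.31; edgeR adjusted p = 0.0287), with counts divided by 4 (0.0354) and with voom and group weights (0.0375). DVL2 was at 58.6, 75.2 and 54.1 CPM against 54.1, 49.5 and 49.3 CPM (-0.30; edgeR adjusted p = 0.195). The 3 genes summed to 109 ± 13.5 FPKM in normal and 74.4 ± 3.88 FPKM in high glucose, and DVL3 held 63.0% ± 2.43 and 58.2% ± 1.61 of the sum (SD, n = 3).

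AXIN1, the scaffold of the destruction complex, was at 39.0, 62.9 and 48.8 CPM in normal and at 35.1, 28.9 and 27.0 CPM in high glucose. The nearest libraries of the groups were 39.0 and 35.1 CPM, and the call was close to the threshold (-0.73, SE 0.198; edgeR adjusted p = 0.0433). It was lost on omitting normal glucose 2 or 3 (0.106 and 0.0519) or any high glucose library (0.0804, 0.143 and 0.15), and with total counts in place of TMM (0.0532). CTNNB1, which encodes beta-catenin, was at 288, 297 and 350.0 CPM against 328, 313 and 307 CPM. The groups overlapped, and the 95% interval of the log2 change was -0.24 to 0.28 (edgeR adjusted p = 0.926). These are transcript levels and say nothing of the amount or place of the protein.

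AXIN2, a scaffold induced by beta-catenin in many cells, shares its locus with CEP112, a centrosomal protein, and that locus was at 8.37, 13.3 and 13.5 CPM against 12.7, 14.1 and 14 CPM (0.21; 95% interval -0.28 to 0.70; edgeR adjusted p = 0.525). The locus of APC, the tumour suppressor of the same complex, also holds SRP19 and was at 138 ± 30.4 and 130.5 ± 31.9 CPM (SD, n = 3; -0.08; 95% interval -0.62 to 0.47). NKD1, a dishevelled-binding inhibitor, was at most 0.243 CPM, and its relative NKD2 had too few counts to test.

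The nuclear cofactors BCL9L and BCL9 rose, and the DNA-binding TCF and LEF factors were not called. BCL9L (chr11:118893875-118926394 on the minus strand in the table's coordinates) links beta-catenin to Pygopus proteins. It was at 119, 122 and 125 CPM in normal and at 392, 437 and 407 CPM in high glucose. The libraries of each group were close together, and every high glucose value was above 3 times every normal one. The log2 change was 1.76 (SE 0.0971; edgeR adjusted p = 6.34e-04), rank 12 by adjusted p of all 25025 tested loci. It stayed between 1.71 and 1.79 when a single library was left out. In FPKM, BCL9L went from 8.68 ± 0.207 to 30.2 ± 1.52 (SD, n = 3). The locus overlaps UPK2, a urothelial gene on the other strand, which was at 0.131 and 0.595 CPM.

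BCL9, the paralogue with the same bridging role, was at 21.1, 22.2 and 23.4 CPM in normal and at 48.4, 53.1 and 47.0 CPM in high glucose. Here too the groups were far apart (1.16, SE 0.112; edgeR adjusted p = 0.00272). BCL9L was the more abundant per length in all 6 libraries, with 75.6% ± 0.461 of the FPKM of the pair in normal and 82.4% ± 0.510 in high glucose, and these shares did not overlap. Both genes rose, and BCL9L by the larger factor (3.38 against 2.23; the difference between the genes was not tested). PYGO2, the Pygopus protein that BCL9 proteins contact, shares its locus with SHC1, an adaptor of growth factor receptors, so its own level is unknown. The joint locus was at 301, 280.2 and 311 CPM in normal and at 435, 443 and 497 CPM in high glucose (0.62, SE 0.103; edgeR adjusted p = 0.00951; 0.0517 without high glucose 3).

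The RefSeq promoter window of BCL9 is printed for contrast with those of WNT9A and DKK1 (GRCh38.p14, plus strand, chr1:147541251-147541550). It held none of the 6 motifs searched and so has no capitals, with 53.0% G and C and 3 CpG.
BCL9: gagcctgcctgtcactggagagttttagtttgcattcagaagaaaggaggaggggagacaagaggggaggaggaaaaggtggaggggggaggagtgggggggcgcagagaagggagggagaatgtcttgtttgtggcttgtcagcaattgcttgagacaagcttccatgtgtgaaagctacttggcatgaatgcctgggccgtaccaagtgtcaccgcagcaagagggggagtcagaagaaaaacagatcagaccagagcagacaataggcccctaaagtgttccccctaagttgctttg
The start of this window plus 250 bases is where the BCL9 locus begins in the deposited table (147541501).

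TCF7L2, the TCF factor with the highest level here, was at 43.2, 40.3 and 32.4 CPM in normal and at 36.6, 32.5 and 17.3 CPM in high glucose. High glucose 3 was the lowest, and the groups overlapped (-0.42; 95% interval -1.07 to 0.22; edgeR adjusted p = 0.326). TCF7 was at 11.4, 11.3 and 12.8 CPM against 6.38, 14.6 and 14.5 CPM, with high glucose 1 apart from the other two and an interval of -0.73 to 0.73. TCF7L1 was at 3.24 ± 0.417 and 3.36 ± 0.399 CPM and LEF1 at 2.71 ± 1.11 and 2.12 ± 0.187 CPM (SD, n = 3; log2 changes 0.05 and -0.35). TCF7L2 held 70.2% ± 2.38 of the FPKM of the 4 genes in normal and 63.2% ± 12.3 in high glucose.

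**Figure D4:**
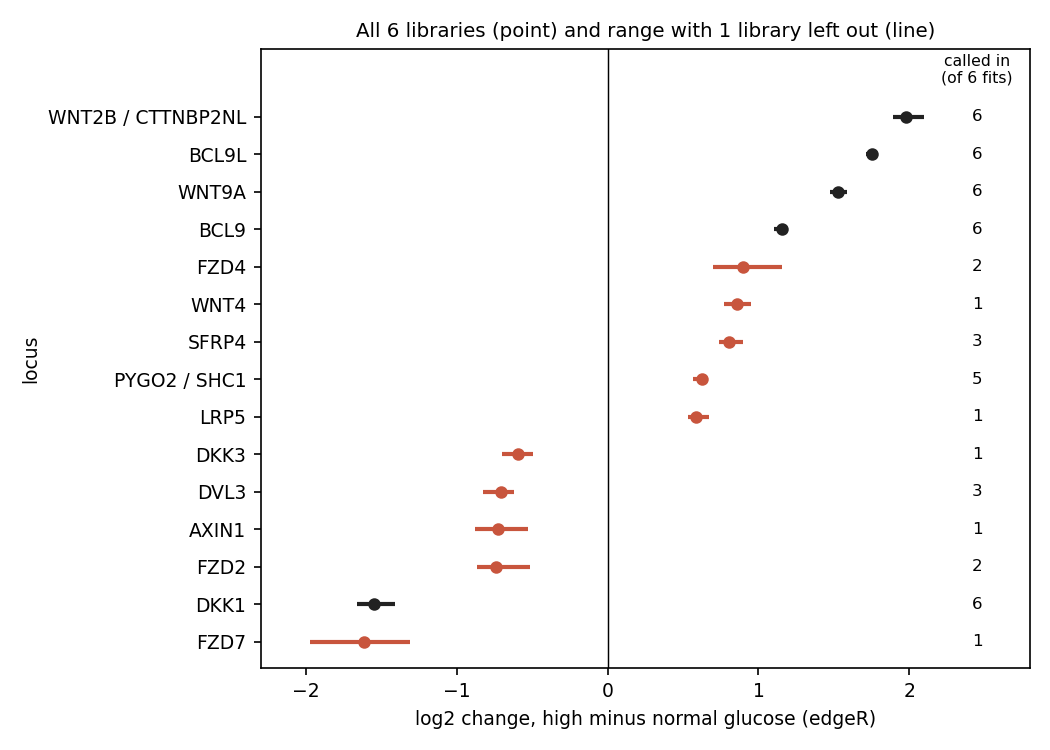
The log2 change (horizontal axis) of the 15 called loci with all 6 libraries (points) and its range over the 6 fits that leave out 1 library (lines); the column at right gives in how many of those fits the locus was called, and black marks loci called in all. The black loci are WNT2B (with CTTNBP2NL), BCL9L, WNT9A, BCL9 and DKK1, and no line crosses 0.

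The plot of fits without 1 library shows the spread of all 15 called loci. BCL9L, BCL9, WNT9A, DKK1 and the WNT2B locus were called in all 16 alternative fits that were run, and none of the 15 changed sign in any alternative run for it. Of the 15, 6 differed by at least 2-fold (those 5 and FZD7).

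Across the 47 member promoters with a RefSeq window, the median G and C content was 72.7%, against 58.3% over all 27305 windows, and the median number of CpG was 30.0 against 14. The GC box GGGCGG was present in 37 of the 47 (78.7%) and in 44.6% of all windows. The E-box CACGTG, which glucose-responsive MondoA and ChREBP factors bind in pairs, was in 2 of 47 (4.26%), neither of them called, and in 7.43% of all windows. TATAAA was in 3 (6.38%) against 12%, and the C/EBP-ATF composite TTGCATCA in 0 of 47 against 0.923%. Each motif was searched on both strands. An absent match says only that these letters are not in this window.

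Other genes of the Wnt pathway, from a list of 71 outside the membership rule, changed in both directions. Of 62 tested, 8 rose and 11 fell, with a median log2 change of -0.05. The called share was 30.6%, beside 25.5% of tested protein-coding loci and 19.6% of all tested loci. KREMEN1, a transmembrane partner of DKK proteins in removing LRP6, was at 11.3, 14 and 10.1 CPM in normal and at 33.9, 34.0 and 36.5 CPM in high glucose. KREMEN1 thus rose (1.56, SE 0.156; edgeR adjusted p = 0.00272), where its ligand DKK1 fell. TLE3, a Groucho corepressor that binds TCF factors, rose from 12.6 ± 2.15 to 38.1 ± 1.96 CPM (1.59), and CELSR1, a planar polarity cadherin, from 23.6 ± 3.03 to 38.6 ± 1.28 CPM (0.71). TLE1, of the same family as TLE3, fell from 71.1 ± 6.25 to 51.5 ± 2.10 CPM (-0.47, edgeR adjusted p = 0.027). TLE2, TLE4 and TLE5 were not called.

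FRAT1, which binds GSK3, fell from 2.67 ± 0.425 to 0.743 ± 0.0948 CPM (log2 change -1.85; edgeR adjusted p = 0.00539). CTBP2, a corepressor, fell from 169 ± 34.1 to 86.4 ± 7.95 CPM (-0.97). FBXW11, a ubiquitin ligase subunit that recognises beta-catenin, fell by 0.61. BTRC, another subunit of that kind, rose from 33.2 ± 7.52 to 73.7 ± 18.6 CPM (1.15, edgeR adjusted p = 0.0186). TNKS2, a tankyrase that marks AXIN for degradation, fell by 0.64, and USP34, a deubiquitinase that stabilises AXIN, by 0.72. GSK3B, the kinase of the destruction complex, was at 170, 176 and 193 CPM against 166, 170 and 187 CPM and not called (edgeR adjusted p = 0.806). BTRC, GSK3B, the following WLS and the TLE genes other than TLE3 were chosen after their values were seen. WLS, the carrier that takes Wnt proteins to the surface, was at 108, 127 and 85.6 CPM against 83.8, 69.9 and 74.6 CPM (-0.49; edgeR adjusted p = 0.076).

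Genes described elsewhere as induced by beta-catenin were called about as often as other protein-coding loci. The list leaves out the members, DKK1 and AXIN2 among them, and shares LGR5, NOTUM and APCDD1 with the other pathway list. Of 34 on the list, 27 were tested, 3 rose and 4 fell, with a median log2 change of -0.15. The called share of 25.9% is near the 25.5% of tested protein-coding loci. FGF18, a growth factor, rose from 0.397 ± 0.175 to 3.70 ± 0.365 CPM (log2 change 3.21; edgeR adjusted p = 0.0036). JUN, an AP-1 subunit, rose by 0.77 and CD44, a hyaluronan receptor, by 0.82. NRCAM, an adhesion protein, fell from 20.5 ± 9.55 to 2.71 ± 0.439 CPM (-2.92; edgeR adjusted p = 0.00419). BIRC5, an inhibitor of apoptosis and mitotic protein, fell by 1.55, EPHB2, an ephrin receptor, by 0.73, and MSX1, a homeobox factor, also by 0.73. LGR5 and NOTUM, which respond to beta-catenin in many tissues, had too few counts to be tested. MYC and CCND1, chosen after their values were seen, were not called (edgeR adjusted p = 0.402 and 0.838). Most of these genes answer to other pathways as well.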

How the data were processed

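RNA of 6 ARPE-19 libraries, 3 per group, was sequenced as read pairs, per the labels' protocols. The authors deposited whole-number counts per locus, not normalized, per the file headers, and FPKM values, which the authors scaled by feature length and sequencing depth, with 0.0001 where the count is 0. Bowtie 0.12.2 and the mouse build mm8 are named in the submitters' processing notes, but all 66 member loci overlap the position of their symbol in GRCh38.p14, so the table's coordinates are printed as given. The counting program and its use of strand were not given in the sources used here. 42 of the 66 loci carry identifiers of a transcript assembly, 6 hold a second gene with a symbol, and 4 more list a clone-named or microRNA transcript beside the member (FZD4, BCL9, DVL1 and FZD8). The last are counted among members with their own locus. Counts of 4 were more frequent than counts of 3 or 5 (9555 against 4210 and 2659), so a fragment may have been counted about 4 times, and the floor was set at 12 counts.

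Loci were filtered with filterByExpr, scaled by TMM and tested in edgeR 4.0.16 (glmQLFit, glmQLFTest, 2-sided; the model held group alone; R 4.3.3), with Benjamini-Hochberg adjustment over all 25025 tested loci. CPM values use TMM library sizes, log2 changes are edgeR estimates of high minus normal glucose, SE was derived as absolute log2 change over the root of F, and intervals are 95%. Alternatives were DESeq2 1.42.0, other scalings, no filter, limma 3.58.1 on log2(FPKM + 1) and log2(FPKM + 0.1), counts divided by 4, voom with group weights, a replicate block and the omission of each library. The script was tested on counts simulated for 25025 loci from the fitted means and dispersions. It called 14% of 100 loci changed 2-fold and 60% of 100 changed 4-fold in the right direction, with 8 false calls. Far fewer loci were changed in the simulation than the 4906 called in the data. The Benjamini-Hochberg adjustment is stricter when fewer loci change, so these shares do not give the power of the fit to the data. A locus that was not called may still differ.

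The members, lists, tests and alternatives were chosen with earlier results of these data known. The named genes are every called member, up to 4 uncalled members of each role with the highest mean FPKM and up to 8 called genes of each further list with the smallest adjusted p, and others are marked or given to account for all members. Promoters were taken from RefSeq windows of 300 bases for the called members with their own locus and the smallest adjusted p; 47 of 65 symbols had one. No libraries of a group agreed within counting noise, as 1 library deposited again would, and all were kept; this does not show separate cultures.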

Additional observations from a re-analysis of the deposited data

How the results depend on the processing

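All 15 called members kept their direction in every alternative run for them (16, or 15 for WNT4, which a filter of FPKM of 1 or more removed), and 5 kept their call in all 16. With limma on log2(FPKM + 1), 3138 loci (1914 higher and 1224 lower, against 2439 and 2467 in the edgeR fit), 9 members, 12 genes of the other pathway list and 4 of the target list were called. With the replicate block, 2545 loci and 9 members were called, against 4906 and 15 without it, and AXIN1, DKK3, FZD2, FZD7, LRP5 and WNT4 lost their calls. The libraries share only a number: same-numbered libraries had correlations of -0.02, -0.00 and -0.01 between their deviations from the group means. Without 1 library, the number of called loci ranged from 1421 to 7615, of called members from 5 to 17, of the other pathway list (19 with all libraries) from 3 to 26 and of the target list (7) from 4 to 11. Omitting a library also leaves fewer libraries for the test.

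Of 21 uncalled members named by rule, 7 changed sign somewhere. TCF7 was at 0.038 with total counts and at 0.0022 with no filter, and FZD1 at 0.0102 with total counts, at 0.0085 with limma on log2(FPKM + 1), also with FPKM of 1 or more in 3 libraries, and at 0.0113 on log2(FPKM + 0.1). Without 1 library, log2 changes ranged from -0.25 to 0.11 for APC, -0.035 to 0.11 for CTNNB1, -0.48 to 0.35 for SFRP1, -0.18 to 0.30 for TCF7, -0.0426 to 0.15 for TCF7L1, -0.11 to 0.0361 for FZD1 and -0.76 to 0.0833 for LGR4. The cause of these shifts was not tested. Of these 21, 4 were called under at least 1 alternative (DVL1, RNF43, ROR1 and RSPO3). The remaining uncalled members were not followed one by one through the alternatives. Depth limits the low members: WNT10B and WNT8B lie near the floor of 12 counts per library.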

Other observations

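The tested loci that lie before, after or across the 15 called members number 39, of which 7 rose, 3 fell and 29 were not called in edgeR's quasi-likelihood test. The called share of 25.6% lies near that of all tested loci (19.6%) and of those with a protein-coding transcript (25.5%). Beside DKK3, GALNT18 rose (0.76), as did AC124276, at 0 CPM in normal and 0.237 CPM in high glucose. Across SFRP4 it was the joint locus of GPR141, EPDR1 and NME8 (0.52). Beside or across WNT2B, CAPZA1 (0.59) and AL354760 (2.17) rose. At FZD4, the divergent transcript FZD4-DT lies 221 bases from the locus and rose by 1.30 (SE 0.339; edgeR adjusted p = 0.0374), and AP001528, which overlaps the locus on the same strand, rose by 2.02 (edgeR adjusted p = 0.0109), from 0.591 to 2.39 CPM. Those that fell were ZBTB40 after WNT4 (-1.01), CKS1B after the PYGO2 locus (-0.85) and PPP6R3 after LRP5 (-0.62), each against the direction of its member. No neighbour of BCL9L, BCL9, DKK1 or WNT9A was called. These loci were chosen by position.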
